A study of Mus musculus with 9 samples.

Results

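The BCL2 family genes described here are 10 of the 23420 gene symbols in the deposited table, chosen by name: the survival genes Bcl2a1a, Bcl2a1b, Bcl2a1d, Mcl1, Bcl2l1 and Bcl2, the pore-forming effectors Bax and Bak1, and the BH3-only genes Bid and Bcl2l11. The 9 RNA sequencing libraries came from Mac1+ cells of C57BL/6 bone marrow, with 100 sorted cells in each, and were made with the full-length method Smart-seq2. Mac1, encoded by Itgam, is a surface integrin of granulocytes and monocytes. All 3 groups were homozygous for the floxed alleles Ezh2 fl/fl and Runx1 fl/fl, so the mice called WT were not without engineered alleles. The DKOITD group (n = 4) carried in addition Rag1Cre+ and Flt3 ITD/+, the ITD group (n = 2) had Flt3 ITD/+ and no Cre, and in the WT group (n = 3) the floxed alleles stood alone. Flt3 ITD is an internal tandem duplication that keeps the FLT3 receptor active, and Rag1 drives Cre in lymphoid progenitors. Ages were not given, and the labels do not say whether libraries of a group are separate animals, so the p-values refer to the spread among libraries only, which may be technical.

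The BCL2 family sets whether a cell keeps its mitochondria intact. Survival proteins (MCL1, BCL2, BCL-xL and the A1 proteins made from Bcl2a1) hold back BAX and BAK, which otherwise form pores in the outer mitochondrial membrane and release cytochrome c to switch on caspases. BH3-only proteins such as BIM and BID respond to stress and tip that balance towards death, and mature granulocytes, which are short-lived, depend on MCL1 in mice.

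Bcl2a1 in the mouse is a set of near-identical copies on chromosome 9. In GENCODE vM21 (GRCm38, the assembly also called mm10), Bcl2a1d lies at chr9:88723285-88731914 on the minus strand, Bcl2a1a at chr9:88956900-88962419 on the plus strand and Bcl2a1b at chr9:89199209-89207827 on the plus strand. Each codes for 516 bases, and the coding sequences are 97.9% (Bcl2a1a and Bcl2a1b), 98.6% (Bcl2a1a and Bcl2a1d) and 98.8% (Bcl2a1b and Bcl2a1d) identical, with 12 positions that differ among the 3. The first 120 coding bases, shown because they hold 7 of those 12 positions (in capitals), read as follows.
Bcl2a1a: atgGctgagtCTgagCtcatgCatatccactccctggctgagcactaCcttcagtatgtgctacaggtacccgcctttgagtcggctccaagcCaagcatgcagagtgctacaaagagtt
Bcl2a1b: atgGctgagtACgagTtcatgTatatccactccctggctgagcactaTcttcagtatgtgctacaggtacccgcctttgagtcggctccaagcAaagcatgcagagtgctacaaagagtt
Bcl2a1d: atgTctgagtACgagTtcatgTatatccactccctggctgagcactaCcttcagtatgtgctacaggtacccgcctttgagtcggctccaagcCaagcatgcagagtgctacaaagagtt
Of all 50-base words of the transcripts, 31% in Bcl2a1a, 42.4% in Bcl2a1b and 20.5% in Bcl2a1d occur in no other copy, so the deposited split of reads between copies is uncertain and their summed RPKM was also tested as 1 feature.

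The promoter windows of the 3 copies, from RefSeq (GRCm38.p6, 250 bases before to 50 after the start site), are shown because the copies moved together. Capitals mark the letters GAGGAAGT, a sequence known to be bound by the myeloid factor PU.1, which was searched on both strands.
Bcl2a1a, chr9:88956670-88956969, plus strand: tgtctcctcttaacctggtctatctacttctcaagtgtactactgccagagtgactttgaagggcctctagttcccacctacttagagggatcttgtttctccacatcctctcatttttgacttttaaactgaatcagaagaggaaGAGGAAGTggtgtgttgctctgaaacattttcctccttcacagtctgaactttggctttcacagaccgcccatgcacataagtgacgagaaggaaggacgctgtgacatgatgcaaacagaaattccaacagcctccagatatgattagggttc
Bcl2a1b, chr9:89199023-89199322, plus strand: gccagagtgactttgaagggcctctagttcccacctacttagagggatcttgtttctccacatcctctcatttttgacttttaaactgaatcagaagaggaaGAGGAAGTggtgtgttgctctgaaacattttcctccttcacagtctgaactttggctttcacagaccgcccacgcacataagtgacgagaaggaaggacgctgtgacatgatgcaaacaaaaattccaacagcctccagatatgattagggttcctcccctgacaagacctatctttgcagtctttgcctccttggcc
Bcl2a1d, chr9:88731801-88732100, minus strand: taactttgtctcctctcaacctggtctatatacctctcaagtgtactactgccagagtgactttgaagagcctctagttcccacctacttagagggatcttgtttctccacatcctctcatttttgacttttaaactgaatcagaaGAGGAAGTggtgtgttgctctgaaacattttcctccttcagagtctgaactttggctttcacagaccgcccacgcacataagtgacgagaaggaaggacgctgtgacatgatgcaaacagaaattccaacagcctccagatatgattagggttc
The match began at -104, -148 and -104 from the annotated start sites of Bcl2a1a, Bcl2a1b and Bcl2a1d. These are not separate occurrences, since the windows are copies of each other: over the aligned bases of Bcl2a1a and Bcl2a1d, 288 matched and 6 did not. The same letters stood in 3.2% of 32851 RefSeq windows of 300 bases. Among the other members they stood in the window of Bak1 at -22, on the strand opposite to that gene. A kappa-B consensus (4.51% of all windows) stood in 1 of 3 windows of Bcl2l1 and in no other member's, and the FOXO letters TGTTTAC (3.65%) stood in 1 of 2 windows of Bcl2l11. The STAT letters TTCNNNGAA (8.3% of all windows) and the letters TATAAA (13.6%) stood in none of the members' windows. Motif matches are descriptions and no binding was measured.

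Across all genes the libraries held 2825728 to 23124435 recovered reads, the fewest in DKOITD library 2. Levels are given in RPKM, here reads scaled by gene length and by a denominator for each library that was not its total of recovered reads. The sort marker Itgam was at 11.0 to 39.0 RPKM in DKOITD libraries, against 78.1 and 97.3 RPKM in ITD libraries and 90.3 to 143 RPKM in WT libraries. Ezh2 was at 1.54 to 18.1 RPKM in DKOITD libraries, against 12.9 and 19.0 RPKM in ITD libraries and 2.05 to 12.4 RPKM in WT libraries. Runx1 was at 10.4 to 17.6 RPKM in DKOITD libraries, against 4.42 RPKM in both ITD libraries and 3.53 to 13.02 RPKM in WT libraries. Values per gene do not resolve the floxed exons, so they check nothing about the deletions. The 3 DKOITD libraries numbered 228, 267 and 274 in the labels stand apart in that number from the other 6 libraries (385 to 393), and the labels do not say what the number means. Whatever it stands for cannot be told apart from the genotype in these 3 libraries. When it entered the model as a term, DKOITD library 4 alone carried the comparison with WT. No member was then called, beside 4 of all 10868 tested genes called higher and 0 lower in DKOITD against WT.

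In DKOITD cells the transcripts of the 3 Bcl2a1 copies and of Bax rose and those of Bcl2l1 fell relative to WT cells, while Mcl1, Bcl2 and Bcl2l11 did not pass the test. In bulk samples such as these, fewer cells of a type and less RNA per cell cannot be told apart. Genes were compared with limma on log2(RPKM + 1) across all 9 libraries, with Benjamini-Hochberg adjustment over 10868 genes and a threshold of 0.05. All 10 members passed the filter on low values, Bcl2 only through DKOITD libraries 1 and 2. Of the 10, 4 were called higher and 1 lower in DKOITD against WT, beside 7.43% of all genes called higher and 5.27% lower. The 2 groups did not overlap in 6 members that were higher and 2 that were lower in DKOITD, beside 14.1% and 10.9% of all genes. Bcl2 is among these 6 but was admitted by its level in DKOITD, so it adds no support. The 3 Bcl2a1 copies are among these 6 and among the 4 called higher. Since reads are divided uncertainly between them, they are not 3 separate results. The median difference over the members was 0.68 on the log2 scale and over all genes 0.17. All RPKM levels below are per length, and all differences are log2 differences of RPKM + 1, in which the changes of low genes come out too small.

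**Figure D1:**
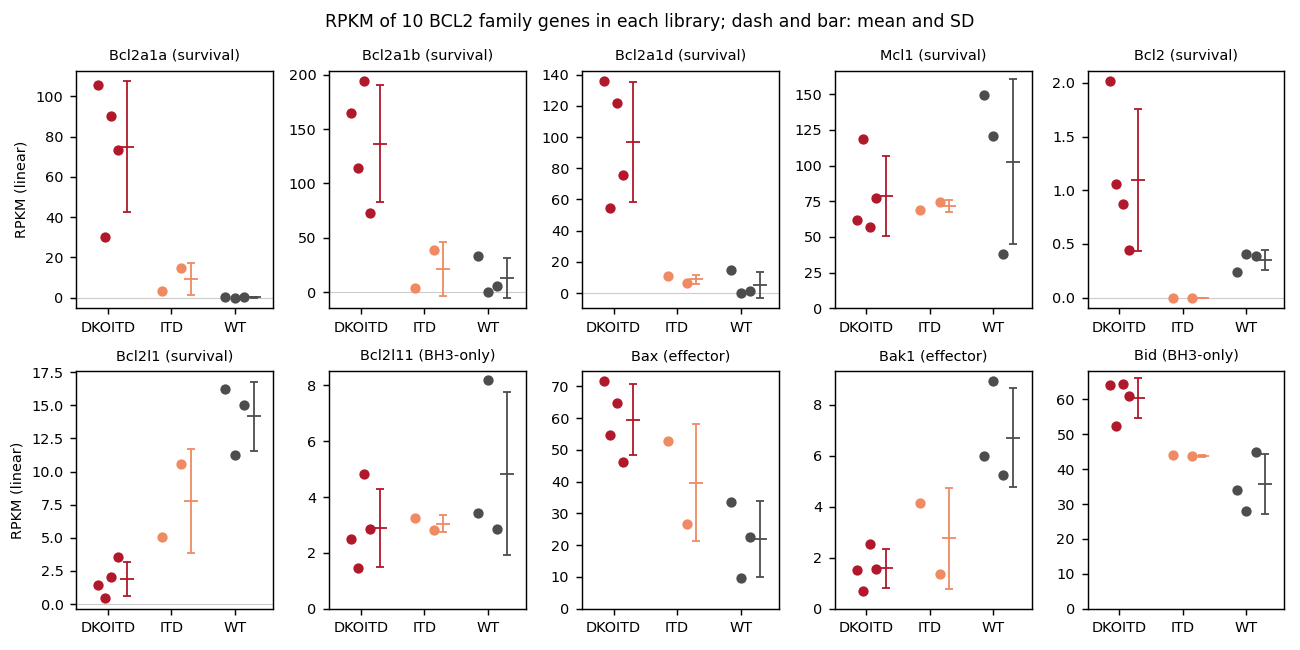
RPKM (linear axis, its range set per gene) of each of the 10 members in DKOITD (left, n = 4), ITD (n = 2) and WT (right, n = 3) libraries; points are libraries, and the dash and bar beside them are the mean and SD. Bcl2a1a is at 30.2 to 106 RPKM in DKOITD libraries and at most 0.217 RPKM in WT libraries, whereas Bcl2l1 is at most 3.57 RPKM in DKOITD libraries and at least 11.3 RPKM in WT libraries.

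Bcl2a1a, which encodes an A1 survival protein, was at 106, 30.2, 90.1 and 73.4 RPKM in DKOITD libraries 1 to 4, against 3.48 and 14.7 RPKM in ITD libraries 1 and 2 and 0.0671, 0 and 0.217 RPKM in WT libraries 1 to 3. The groups did not overlap: every DKOITD library was above both ITD libraries, and both ITD libraries were above every WT library. In recovered reads this was 2756 in DKOITD, 150 in ITD and 3 in WT libraries together, a ratio of pooled depth-scaled reads between DKOITD and WT of 921 (95% interval 315 to 4468, counting error only). The limma difference was 5.98 ± 0.54 (SE, adjusted p = 0.000213).

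Bcl2a1b was at 165, 115, 194 and 73.1 RPKM in DKOITD libraries, against 3.90 and 38.6 RPKM in ITD libraries and 33.6, 0 and 5.08 RPKM in WT libraries. DKOITD libraries were all above the rest, while ITD and WT libraries overlapped. It rose by 4.44 ± 0.99 (SE, limma adjusted p = 0.0154) in DKOITD against WT, a call that was lost without DKOITD library 3 (adjusted p = 0.0507). Bcl2a1d was at 136, 54.3, 122 and 75.4 RPKM in DKOITD libraries, against 11.0 and 6.75 RPKM in ITD libraries and 14.7, 0 and 1.08 RPKM in WT libraries. Again all DKOITD libraries lay above the rest, and ITD and WT libraries overlapped. Its difference was 4.84 ± 0.75 (SE, limma adjusted p = 0.00354) between DKOITD and WT.

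Summed over the 3 copies, Bcl2a1 averaged 308 ± 113 RPKM in DKOITD cells (SD, n = 4), against 39.2 ± 29.5 RPKM in ITD cells (n = 2) and 18.2 ± 26.3 RPKM in WT cells (n = 3). Single DKOITD libraries held 407, 199, 406 and 222 RPKM, against 18.4 and 60.0 RPKM in ITD libraries, with 48.3, 0 and 6.38 RPKM in WT libraries. WT library 2 held 0 reads of all 3 copies, which allows up to 0.333 RPKM of Bcl2a1a, 0.347 RPKM of Bcl2a1b and 0.333 RPKM of Bcl2a1d (3 reads each, counting error only). The sum rose by 5.36 ± 0.96 (SE, limma adjusted p = 0.00656) in DKOITD against WT, and it kept its call without any single library (differences of 3.94 to 6.75, adjusted p of 0.00103 to 0.0247). The deposited split gave Bcl2a1a 15.2% to 33.1% of the sum in DKOITD libraries, against 19.0% and 24.4% in ITD libraries and 0.139% and 3.40% in the 2 WT libraries with reads. How the authors' counting divided reads between copies was not tested.

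Mcl1, the short-lived survival protein on which neutrophils depend, was at 62.1, 119, 56.8 and 77.2 RPKM in DKOITD libraries, against 69.0 and 74.8 RPKM in ITD libraries and 149, 121 and 38.0 RPKM in WT libraries. The 3 groups overlapped, with the highest and the lowest value both in WT. The difference between DKOITD and WT was -0.22 with a 95% interval of -1.18 to 0.73 (limma adjusted p = 0.761), and its sign turned where libraries were scaled to recovered reads (0.53) or to the same sum of RPKM (1.17), and without WT library 1 (0.15).

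Bcl2l1, which encodes BCL-xL, was at 1.47, 0.461, 2.07 and 3.57 RPKM in DKOITD libraries, against 5.03 and 10.6 RPKM in ITD libraries and 16.2, 11.3 and 15.03 RPKM in WT libraries. The groups formed 3 separate ranges, lowest in DKOITD and highest in WT. It fell by 2.49 ± 0.50 (SE, limma adjusted p = 0.00995) in DKOITD against WT, on 226 recovered reads in DKOITD and 1436 in WT libraries, and kept its call without any single library (adjusted p of 0.0105 to 0.0325). Bcl2, a survival gene of lymphocytes, was low throughout, at 2.01, 1.06, 0.872 and 0.440 RPKM in DKOITD libraries, against 0 in both ITD libraries and 0.242, 0.411 and 0.390 RPKM in WT libraries. DKOITD and WT did not overlap, by a narrow margin, and the difference of 0.59 (95% interval -0.25 to 1.43, limma adjusted p = 0.318) was not past the threshold. It was -0.17 after quantile normalization. The 0 reads of Bcl2 in ITD libraries allow up to 0.0826 RPKM in library 1 and 0.0331 RPKM in library 2. Against 3 reads over both ITD libraries together, the pooled depth-scaled reads were at least 45.1-fold higher in DKOITD than in ITD. Without DKOITD library 1, which held 188 of the 342 DKOITD reads, this was at least 28.6-fold. Such a bound covers counting error only and not the spread between libraries. Bcl2 was also at least 13.9-fold higher in WT than in ITD by the same bound, on 106 reads in WT. The fitted difference of 1.02 between DKOITD and ITD was not past the threshold (limma adjusted p = 0.286), and Bcl2 was tested only because of its level in DKOITD.

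The makeup of the survival transcripts within a library, which no scaling of whole libraries can move, set DKOITD libraries apart from the others, while the Bcl2a1 and Mcl1 shares of ITD and WT libraries overlapped. It is given as a description with no test. The Bcl2a1 copies were 86.1%, 62.4%, 87.2% and 73.2% of the summed RPKM of the 6 survival genes in DKOITD libraries, against 19.9% and 41.3% in ITD libraries and 22.6%, 0% and 10.7% in WT libraries. Mcl1 made up 12.2% to 37.2% of it in DKOITD libraries, against 74.7% and 51.4% in ITD libraries and 63.5% to 91.2% in WT libraries. The summed Bcl2a1 level was 1.68 to 7.15 times that of Mcl1 in every DKOITD library and below it in all ITD and WT libraries, at most 0.803 times. Bcl2l1 supplied 0.145% to 1.18% in DKOITD libraries, against 5.45% and 7.27% in ITD libraries and 7.59% to 25.1% in WT libraries. As single genes, Bcl2a1b was the highest of the 10 members in DKOITD libraries 1 and 3, Bid was highest in WT library 3, and Mcl1 was highest in the other 6 libraries.

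**Figure D2:**
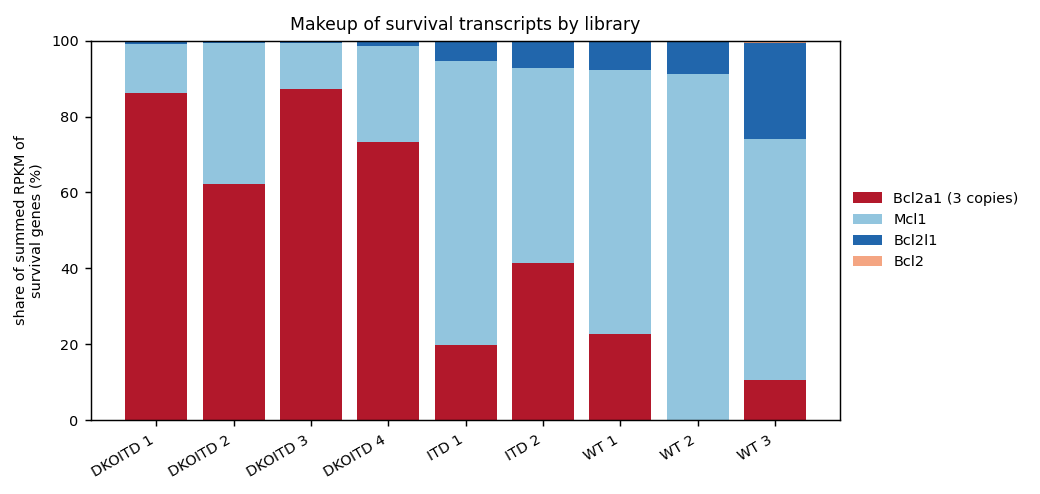
Share of the summed RPKM of the 6 survival genes (percent, stacked bars, 1 bar per library) that came from the 3 Bcl2a1 copies together, Mcl1, Bcl2l1 and Bcl2, with DKOITD libraries on the left, then ITD and WT libraries. The Bcl2a1 part is 62.4% to 87.2% in DKOITD libraries and at most 41.3% in the others, and Bcl2 is too thin to see in most bars.

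Among the effectors, Bax was at 71.7, 54.8, 64.9 and 46.3 RPKM in DKOITD libraries, against 52.7 and 26.7 RPKM in ITD libraries and 33.4, 9.76 and 22.5 RPKM in WT libraries. All DKOITD libraries lay above all WT libraries, and ITD overlapped both. Bax rose by 1.53 ± 0.42 (SE, limma adjusted p = 0.0332) in DKOITD against WT. This call was lost without DKOITD library 1 (adjusted p = 0.0925), 2 (0.0543) or 3 (0.0915) or without WT library 2 (0.0945), each of which kept the direction.

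Bak1, the other pore-forming protein gene, was at 1.53, 0.683, 2.54 and 1.57 RPKM in DKOITD libraries, against 4.15 and 1.36 RPKM in ITD libraries and 5.98, 8.92 and 5.26 RPKM in WT libraries. Every DKOITD library was below every WT library, and the ITD libraries overlapped DKOITD only. The difference of -1.60 (95% interval -2.66 to -0.54) just missed the threshold (limma adjusted p = 0.0506), and it passed without WT library 3 (adjusted p = 0.0487). Per length, Bax exceeded Bak1 by 25.6 to 80.2 times in DKOITD libraries, against 12.7 and 19.6 times in ITD libraries and 1.09 to 5.59 times in WT libraries. These ratios, which formed 3 separate ranges, rest on few Bak1 reads (144 in DKOITD, 71 in ITD and 548 in WT libraries).

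Of the BH3-only genes, Bid, whose protein is cut by caspase-8 and links death receptors to mitochondria, was at 64.1, 52.2, 64.5 and 61.0 RPKM in DKOITD libraries, against 44.1 and 43.7 RPKM in ITD libraries and 34.0, 28.0 and 45.0 RPKM in WT libraries. DKOITD libraries were all above the others, and ITD lay within the WT range. The difference from WT was 0.77 (95% interval 0.16 to 1.38, limma adjusted p = 0.0913), and it passed without WT library 3 (0.94, adjusted p = 0.0384). Bcl2l11, which encodes BIM, the BH3-only protein needed for death of granulocytes and lymphocytes after cytokine loss, was at 2.49, 1.47, 4.81 and 2.85 RPKM in DKOITD libraries, against 3.26 and 2.83 RPKM in ITD libraries and 3.44, 8.18 and 2.86 RPKM in WT libraries. The groups overlapped, and the difference of -0.54 had a 95% interval of -1.62 to 0.55 (limma adjusted p = 0.489), and it was 0.06 per recovered read and 0.57 with the same sum of RPKM. Bid was 13.4 to 35.6 times Bcl2l11 per length in DKOITD libraries, against 13.5 and 15.4 times in ITD libraries and 3.42 to 15.7 times in WT libraries.

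**Figure D3:**
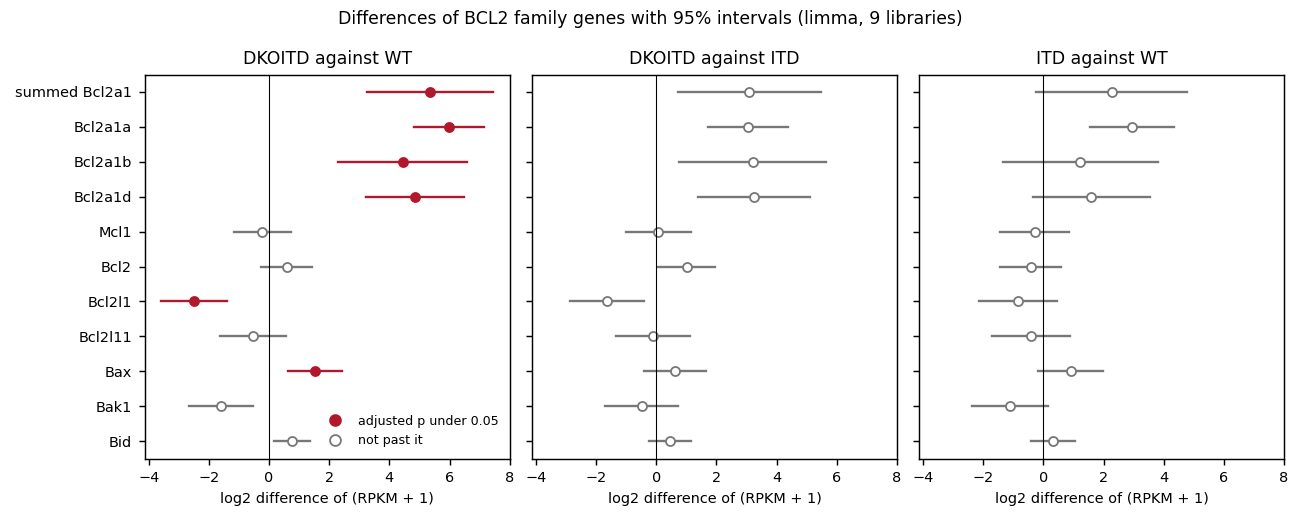
Log2 differences of (RPKM + 1) with 95% intervals for the summed Bcl2a1 copies and the 10 members in DKOITD against WT (left), DKOITD against ITD (middle) and ITD against WT (right); filled red points passed an adjusted p of 0.05. The calls, among them Bcl2a1a at 5.98 and Bcl2l1 at -2.49, are all in the left panel.

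Against ITD cells, which share the Flt3 ITD allele but carry no Cre, no member of DKOITD cells passed the threshold in limma, although 5 of 10 had an unadjusted p under 0.05. In this comparison 0.156% of all genes were called higher and 0.0552% lower. The groups did not overlap in 5 members that were higher in DKOITD (the 3 Bcl2a1 copies, Bid and Bcl2, the last of which was tested only because of its level in DKOITD) and in 1 that was lower (Bcl2l1), beside 17.3% and 14% of all genes. Bcl2a1a was nearest to the threshold, with a difference of 3.04 ± 0.61 (SE, limma adjusted p = 0.0578), and the summed copies differed by 3.09 (95% interval 0.71 to 5.47, adjusted p = 0.191). The sum passed with only the DKOITD and ITD libraries in the fit (adjusted p = 0.0309), with library weights (0.0430) and with every library scaled to the same sum of RPKM (0.0263). For Bcl2l1 the difference was -1.65 (95% interval -2.88 to -0.42, adjusted p = 0.180).

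Between ITD and WT cells, which differ in the labels only by the Flt3 ITD allele, no member passed the threshold in limma, and 1 of 10 had an unadjusted p under 0.05. Of all genes, 0.0092% were called higher and 0% lower. That member was Bcl2a1a, with a difference of 2.94 ± 0.64 (SE, adjusted p = 0.234) and a ratio of pooled depth-scaled reads of 127 (95% interval 42.5 to 622, counting error only). ITD and WT libraries did not overlap for Bcl2a1a, which was higher in ITD, and for Bcl2, Bcl2l1 and Bak1, which were lower, beside 10.1% and 8.99% of all genes. The 2 comparisons with WT share the 3 WT libraries.

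How libraries are scaled moved every difference between DKOITD and WT. The median difference of all genes was 0.17 as deposited, -0.03 after quantile normalization, 0.74 per recovered read and 1.205 with the same sum of RPKM in every library. Of all genes, 807 were called higher and 573 lower as deposited, against 678 and 767 after quantile normalization, 2534 and 247 per recovered read, and 5009 and 127 with the same sum. Relative to the median of all genes the members moved less than the median itself: the summed Bcl2a1 stood 5.19 to 5.33 above it, Bax 1.36 to 1.69 above it, Bid 0.59 to 0.94 above it, and Bcl2l1 -2.75 to -2.63 and Bak1 -1.91 to -1.76 from it. Mcl1 stood between -0.40 and -0.04 from that median, and Bcl2l11 between -0.73 and -0.64. Bcl2 changed sides, at 0.42 from the median as deposited and -0.14 after quantile normalization.

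**Figure D4:**
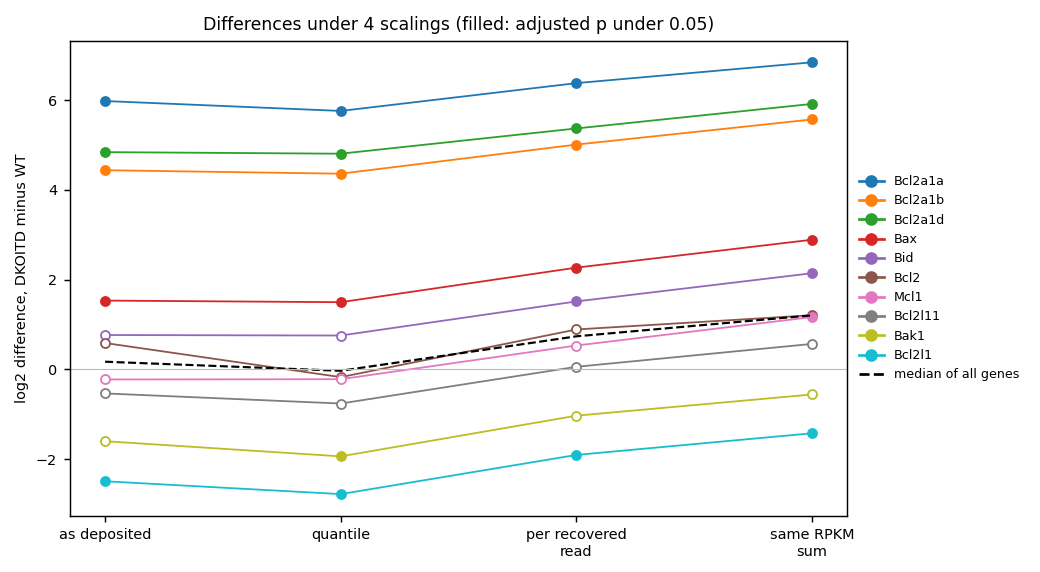
Log2 difference of DKOITD minus WT for each member (coloured lines, filled where the adjusted p was under 0.05) with the libraries scaled in 4 ways along the horizontal axis, beside the median of all genes (dashed). The members move with the median, which goes from -0.03 after quantile normalization to 1.205 with the same sum of RPKM in every library, and the Bcl2a1 copies, Bax and Bcl2l1 are filled in all 4.

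Markers of cell types also differed between the groups. Of 13 dendritic cell and MHC class II markers 12 were called higher in DKOITD against WT, and their summed level was 9514 to 38288 RPKM in DKOITD libraries, against 4240 and 11397 RPKM in ITD libraries and 53.9 to 1228 RPKM in WT libraries, where Zbtb46 and Ccr7 were at 0. The largest of these differences were those of Cd209a (10.01), H2-Eb1 (8.28), H2-Aa (7.56), H2-Ab1 (6.82) and Clec10a (6.79), and Ccr7 was tested only because of its level in DKOITD. Flt3, which is on this list, was at 34.5, 26.1, 39.2 and 8.80 RPKM in DKOITD libraries, against 0 and 10.4 RPKM in ITD libraries and 0.0146, 0.145 and 0 RPKM in WT libraries. From this list Ccr7 and Clec10a were called in DKOITD against ITD, both higher, and Cd209a in ITD against WT, higher in ITD. Of 11 tested mature neutrophil markers 10 were called lower, with sums of 35406 to 265960 RPKM in DKOITD libraries, against 682652 and 728849 RPKM in ITD libraries and 879453 to 1193590 RPKM in WT libraries. The largest falls were those of Mmp9 (-4.90), S100a9 (-3.90), Lcn2 (-3.54), S100a8 (-3.24) and Camp (-3.20). In DKOITD libraries 1 to 4 the summed Bcl2a1 was 407, 199, 406 and 222 RPKM. The neutrophil sums of these libraries were 57988, 200624, 35406 and 265960 RPKM, and their dendritic sums 38288, 9514, 36499 and 36634 RPKM. Single markers of the dendritic list did not order these libraries alike. In libraries 1 to 4 Cd74 was at 12463, 3404, 12963 and 12122 RPKM, whereas Cd83 was at 158, 55.1, 196 and 46.4 RPKM. Their relation to Bcl2a1 was not tested. Of 8 monocyte and macrophage markers 3 were called higher (Cd68, Ms4a6c and Ccr2), with sums of 2328 to 3696 RPKM in DKOITD libraries, against 3956 and 4096 RPKM in ITD libraries and 2692 to 3356 RPKM in WT libraries. Pax5 and Igll1 of B cells, Cd3e of T cells and Gzmb and Prf1 of cytotoxic cells were at 0 in every library. Of 5 promyelocyte markers none was called in limma (1 at an unadjusted p under 0.05). Most markers of other lineages were too low to test. Of 2 tested B lineage markers Cd79b was called higher, and Cd79a (-0.66) did not pass. Of 3 tested T lineage markers Il7r was called higher but was tested only because of its level in DKOITD. Cd3d (-2.22) and Cd4 (0.95) did not pass. Of 2 tested NK and cytotoxic markers Nkg7 was called lower, while Klrd1 was higher and did not pass (4.12, limma adjusted p = 0.0543). Klrd1 was at 15.8 to 124 RPKM in DKOITD libraries, against 0 and 14.9 RPKM in ITD libraries and 0, 39.9 and 0 RPKM in WT libraries. Gzma (146 RPKM) and Ncr1 (6.95 RPKM) were above 0 in WT library 2 alone. Of 4 tested erythroid markers Beta-s was called lower, and of 2 tested eosinophil, basophil and mast cell markers none (none at an unadjusted p under 0.05). The erythroid sum was 1.28 to 9.50 RPKM in DKOITD libraries, against 0 and 2848 RPKM in ITD libraries and 17210, 5468 and 20.2 RPKM in WT libraries 1 to 3. Bcl2l1, a survival gene of erythroid cells too, was at 5.03 and 10.6 RPKM in the same ITD libraries and 16.2, 11.3 and 15.03 RPKM in the same WT libraries. The part of the cell makeup in the differences of the BCL2 family was not tested.

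The rest of the family and its surroundings were read from lists of related genes. The counts of each list in DKOITD against WT stand beside 7.43% of all genes called higher and 5.27% lower. Of 10 further BCL2 family genes, Bcl2l10, Bok, Bik and Hrk were at 0 in all libraries, and of the 6 tested Pmaip1 and Bcl2a1c were called higher in DKOITD against WT. Pmaip1, the BH3-only gene encoding NOXA, which binds MCL1 and A1, was at 55.6, 20.7, 57.5 and 21.9 RPKM in DKOITD libraries, against 0.964 and 8.13 RPKM in ITD libraries and 1.27, 0.0333 and 1.95 RPKM in WT libraries. All DKOITD libraries stood above the rest. Pmaip1 rose by 4.23 ± 0.63 (SE, limma adjusted p = 0.00326), a call kept without any single library. Bcl2a1c, a shorter relative of the Bcl2a1 copies, was at 1.25 to 3.36 RPKM in DKOITD libraries, against 0 and 0.384 RPKM in ITD libraries and 0 to 0.722 RPKM in WT libraries. Its difference was 1.44 ± 0.43 (SE, adjusted p = 0.0485), on 47 reads in DKOITD, 2 in ITD and 6 in WT libraries. It reached 1 RPKM in DKOITD libraries only, so it was tested because it is high there, and its call was lost in 15 of 18 alternatives, among them 8 of the 9 fits without a single library (all but WT library 1). Bad, Bbc3 (PUMA), Bcl2l2 and Bmf had differences of 0.20 to 0.73 that did not pass.

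Downstream of the mitochondria, 1 of 18 tested genes of caspase activation was called. Casp6, an executioner caspase gene, was at 57.0 to 81.9 RPKM in DKOITD libraries, against 8.93 and 28.9 RPKM in ITD libraries and 0 to 13.1 RPKM in WT libraries, and rose by 3.66 ± 0.75 (SE, limma adjusted p = 0.0109). Its call was kept without any single library and lost with no filter on low values, where the channel gene Vdac2 was called lower in its place. The list's median difference was 0.01, beside 0.17 for all genes. The apoptosome gene Apaf1 (-1.03, adjusted p = 0.141) and the initiator Casp9 (-0.12, adjusted p = 0.885) did not pass. Of 14 tested death receptor genes, the TNF receptor gene Tnfrsf1a alone was called, and it fell by 1.09 ± 0.28 (SE, adjusted p = 0.0275) to 33.2 to 48.4 RPKM in DKOITD libraries, against 74.8 to 107 RPKM in WT libraries. That call was lost without DKOITD library 1 or 3 or WT library 2 and per recovered read.

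NF-kB, a transcription factor family known to drive Bcl2a1 in mouse and human cells, was covered by 17 tested subunit, regulator and target genes, of which 2 were called higher and none lower (limma, 6 at an unadjusted p under 0.05), with a median difference of 0.34. The adhesion gene Icam1 was at 20.2, 7.97, 26.8 and 22.6 RPKM in DKOITD libraries, against 1.43 and 3.39 RPKM in ITD libraries and 0.463, 0 and 2.86 RPKM in WT libraries, and rose by 3.40 ± 0.59 (SE, adjusted p = 0.00539). Traf1, a TNF receptor adaptor gene, was at 2.12 to 19.3 RPKM in DKOITD libraries, against 0.0917 and 0.403 RPKM in ITD libraries and 0 to 0.896 RPKM in WT libraries, a difference of 2.68 ± 0.63 (SE, adjusted p = 0.0195). It was tested only because of its level in DKOITD, and its call was lost without DKOITD library 3 or WT library 2. Both are targets of NF-kB, while the subunit genes Relb (1.96, adjusted p = 0.1003), Nfkb1 (1.01, adjusted p = 0.0805) and Rela (-0.52, adjusted p = 0.419) did not pass. Of 13 tested genes around p53, which induces Bax, Pmaip1 and Bbc3, 1 was called higher and 2 lower, with a median of 0.60. Cdkn1a, which encodes the cell cycle inhibitor p21, rose by 1.73 ± 0.46 (SE, adjusted p = 0.0310), the stress gene Gadd45a fell by 2.38 ± 0.50 (SE, adjusted p = 0.0120), and the p53 inhibitor Mdm4 fell by 1.93 ± 0.50 (SE, adjusted p = 0.0275). Of 19 other regulators, the cytokine receptor genes Csf3r (-2.10 ± 0.51, adjusted p = 0.0226) and Csf2ra (-1.48 ± 0.38, adjusted p = 0.0274) fell, and the median was -0.06. Calls were lost without DKOITD library 1 or 3 or WT library 2 for Cdkn1a, Mdm4, Csf3r and Csf2ra, and also without WT library 1 for Cdkn1a, Csf3r and Csf2ra, whereas Gadd45a kept its call without any single library. Csf3r is also in the neutrophil list. The list calls depend on the scaling. Per recovered read, 3 genes of the caspase list, 4 of the death receptor list, 7 of the NF-kB list, 6 of the p53 list and 1 of the other regulators were called, all of them higher in DKOITD except 1 in the p53 list. With that scaling 2534 of all 10988 tested genes were called higher and 247 lower. When single libraries were left out, the counts were 1 to 3, 0 to 2, 1 to 3, 1 to 4 and 0 to 2 for these lists in the same order. In DKOITD against ITD and in ITD against WT none of the tested genes of these 6 lists was called in limma. Across the lists, 0 to 4 genes each had an unadjusted p under 0.05 in DKOITD against ITD and 0 to 2 in ITD against WT.

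The genes whose pattern was most like that of a called member were found by the root mean square difference of centred log2(RPKM + 1) over the 9 libraries. For the summed Bcl2a1, whose own spread was 2.76, these were Tmem176b (0.44), Bmyc (0.90) and Clec4b1 (0.93). Tmem176b was at 352, 181, 371 and 209 RPKM in DKOITD libraries, against 32.9 and 84.0 RPKM in ITD libraries and 33.5, 0.647 and 5.56 RPKM in WT libraries, an order of libraries like that of Bcl2a1. For Bcl2l1, with a spread of 1.21, these were Itih5 (0.35), Il1f9 (0.37) and Map4k2 (0.39), and for Bax, with a spread of 0.83, Iah1 (0.29), Mrps25 (0.29) and Pcnp (0.30).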

How the data were processed

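RPKM per gene symbol, deposited by the authors in 1 table with a column for each of the 9 libraries, were used as given, and 0 columns could not be assigned. The submitters' processing notes name the genome build mm10 and the tools STAR 2.4.2a, SAMtools 1.1 and HTSeq 0.6.1p1. The annotation, the counting mode and the scaling were not stated in those notes or the labels. Since Smart-seq2 does not mark strand, reads from genes that overlap are not separable. Groups and replicate numbers came from the sample titles.

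Genes with at least 1 RPKM in at least 2 libraries were kept (10868 of 23420), and 1 linear model over the 9 libraries was made of log2(RPKM + 1) in limma 3.58.1 (R 4.3.3, lmFit and trended eBayes). The 3 comparisons were tested two-sided, with Benjamini-Hochberg adjustment over all tested genes and a threshold of 0.05. The script was tested on simulated data. Whole reads were recovered from RPKM for 15564 of 15566 genes above 0 (tolerance 0.0001 reads), with library denominators fixed by 260 genes whose GENCODE vM21 length gave whole reads, and each gene took the smallest length between 20 and 30000 that gave whole reads, which can undercount a gene. These reads served for depth, ratios of pooled reads, floors and 1 alternative. Denominators were 0.703 to 1.441 times the recovered reads, and this factor separated the groups. It was 1.127 to 1.441 in DKOITD libraries, 0.919 and 0.853 in ITD libraries and 0.703 to 0.810 in WT libraries. Relative to recovered reads, deposited RPKM were thus scaled down in DKOITD libraries and up in the others. Without molecular identifiers PCR copies count as reads, so floors of 3 reads and 95% intervals cover counting error only.

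The members and the gene lists were chosen with earlier results of these data known. All 10 members are named, with the other BCL2 family genes, up to 5 called genes of each list and comparison by size, the 3 genes most like each called pattern, and Ezh2, Runx1, Flt3 and Itgam. Apaf1, Casp9, Relb, Nfkb1, Rela and Vdac2 were added after their values were seen. Sequences were matched by symbol to RefSeq promoters and GENCODE transcripts (Biopython 1.88). Protein sequences were not used here. Alternatives were another pseudocount (0.1), no filter, 3 scalings, library weights, the replicate number as a block, the label number series as a term, only the libraries compared, and leaving out each library.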

Additional observations from a re-analysis of the deposited data

How the results depend on the processing

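In DKOITD against WT, 5 members were called as reported. The count was 3 with no filter on low values, 8 with the same sum of RPKM in every library, 0 with a term for the label number series, and 3 to 7 when single libraries were left out, with 3 without DKOITD library 3 and 7 without WT library 3. In DKOITD against ITD, 0 were called as reported, 4 with the same sum, 2 per recovered read, 2 with library weights, 1 with only the libraries compared, and 0 to 1 without single libraries. The summed Bcl2a1 differed by 4.96 between DKOITD and WT with the label number series (adjusted p = 0.347), where DKOITD library 4 alone carries the comparison. Between DKOITD and ITD it differed by 4.16 with the same sum, 3.19 with library weights and 3.09 with only the libraries compared, past the threshold in each. Among all genes in DKOITD against ITD, 1518 were called higher and 38 lower with the same sum, and 243 and 25 per recovered read. These counts were 278 and 248 with library weights, and 73 and 21 with only the libraries compared. In DKOITD against WT, 5009 of 11164 tested genes were called higher and 127 lower with the same sum. Without WT library 3 they were 1175 and 787 of 10741. Mcl1 turned to 1.17 with the same sum (adjusted p = 0.0374), where the median of all genes was 1.205. Of 178 combinations of a member and an alternative in DKOITD against WT, 153 kept direction and call, 13 lost the call, 6 gained it and 6 turned round; in DKOITD against ITD 7 and in ITD against WT 4 turned round. Bax was also lost with library weights (adjusted p = 0.0564) and, with Bcl2a1b (0.0840), with no filter (0.0858). The causes were not tested.

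Apart from Mcl1 with the same sum, no member passed where its sign turned. In DKOITD against WT these were Bcl2 after quantile normalization (-0.17), Bcl2l11 with the same sum (0.57) and per recovered read (0.058), and Mcl1 per recovered read (0.53). In DKOITD against ITD they were Bcl2l11 with the same sum (0.71) and per recovered read (0.30), Bak1 with the same sum (0.23) and Mcl1 with library weights (-0.011). In ITD against WT it was Mcl1 with the same sum (0.037). When single libraries were left out, differences crossed 0 for Mcl1 in DKOITD against WT (-0.82 to 0.15), DKOITD against ITD (-0.15 to 0.20) and ITD against WT (-0.89 to 0.081), for Bcl2l11 (-0.33 to 0.081) and Bak1 (-1.05 to 0.078) in DKOITD against ITD, and for Bcl2a1b in ITD against WT (-0.28 to 2.74).

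With the replicate block, 5 members were called in DKOITD against WT. Replicate numbers did not pair libraries, since correlations of same-numbered libraries were -0.04 to 0.07. Of all genes, 472 were then called higher and 412 lower, against 450 and 283 with no filter, 4 and 0 with the label number series, 372 and 239 without DKOITD library 1, 317 and 224 without DKOITD library 3, and 455 and 311 without WT library 2. Without DKOITD library 2, the shallowest, 702 and 490 were called.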
